A study of Mus musculus with 6 samples.

Results

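The DNA replication and S-phase genes described here are 39 named genes of the replication machinery and its supply, taken by gene symbol from the deposited expression table. All 39 were present among the 30071 genes of the table, and all 39 were among the 18177 genes with enough counts to be tested. The table holds RNA-seq of MC3T3-E1, an osteoblast precursor line of the mouse, grown on polyetheretherketone (PEEK), an implant polymer, with a nano- and microstructured surface. In 3 libraries the culture had received supernatant of RAW264.7, a line of mouse macrophages, and 3 libraries came from the same surface with no supernatant. Both groups share the cell line and the PEEK surface. The labels do not say on which surface the RAW264.7 cells were grown or how long the exposure lasted. The cells are an established line, so cultures are not separate animals.

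A cell that prepares to divide first marks its origins of replication: the origin recognition complex, with Cdc6 and Cdt1, loads the ring of Mcm2 to Mcm7 onto DNA. Cdc45 and the GINS proteins then turn the ring into an active helicase, and polymerases, a sliding clamp and its loader copy the opened strands. Most of these genes are transcribed in late G1 and S phase under E2F transcription factors, so their mRNA levels follow the share of cycling cells. In osteoblast cultures a phase of proliferation comes before matrix formation and mineralization.

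Values are in CPM, that is counts scaled to the normalized library size, or in FPKM, which is also scaled to gene length and is used wherever levels of different genes are set side by side. Log2 fold changes are with supernatant over PEEK alone. Total counts were 74927500 to 80861720 per library with supernatant and 76895736 to 82803173 on PEEK alone. The 39 genes together took 0.371, 0.401 and 0.435% of the counts in replicates 1, 2 and 3 with supernatant, and 0.369, 0.347 and 0.351% on PEEK alone. Replicates 2 and 3 of each group lay closest to each other. Over all tested genes the SD of the log2 difference was 0.65 between these replicates with supernatant and 0.63 on PEEK alone. For the other pairs it was 0.68 to 0.79. Between replicate 1 with supernatant and replicates 2 and 3 of its group it was 0.742 and 0.789. Against replicates 1, 2 and 3 on PEEK alone it was 0.710, 0.677 and 0.741. Replicate 1 with supernatant thus lay no closer to its own group than to PEEK alone. In bulk RNA, a change in the share of cycling cells and a change in RNA of a gene per cycling cell cannot be told apart.

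The labelled cell type was checked against its markers. All 9 osteoblast lineage markers had counts, and their summed level was 624.8 to 909 FPKM with supernatant and 806 to 919 FPKM on PEEK alone; the osteocalcin gene Bglap was near 0, with 17, 0 and 0 counts with supernatant and 0, 2 and 2 counts on PEEK alone. That sum was 909, 625 and 684 FPKM in replicates 1, 2 and 3 with supernatant. Replicates 2 and 3, with the higher replication values, thus had lower sums than replicate 1, but between replicates 2 and 3 both values rose. The largest part of the sum was Col1a2, at 648, 350 and 394 FPKM in these libraries. Spp1 had the other order, at 114, 215 and 240 FPKM. Alpl, at 20.6, 5.95 and 4.91 FPKM, and Sp7, at 8.86, 3.32 and 2.69 FPKM, were also highest in replicate 1. On PEEK alone Alpl was at 3.93, 7.08 and 6.46 FPKM and Sp7 at 4.39, 3.77 and 3.60 FPKM. Not all lineage markers were high: over all 6 libraries Col1a1 averaged 2.84 FPKM, against 511 FPKM for Col1a2, and Ibsp averaged 0.499 FPKM. Of 15 macrophage markers 11 were in the table, and their summed level was 4.82 to 7.15 FPKM with supernatant and 5.80 to 8.09 FPKM on PEEK alone. Ptprc, the pan-leukocyte marker, had 0, 0 and 4 counts with supernatant and 0 counts in each library on PEEK alone. The summed levels of endothelial, adipocyte and chondrocyte markers were 0.0425 to 0.103, 0.436 to 0.769 and 21.6 to 37.3 FPKM with supernatant, and 0.0333 to 0.0534, 0.505 to 0.589 and 20.9 to 31.0 FPKM on PEEK alone. Over all 6 libraries the chondrocyte sum was nearly all Sox9 (mean 26.95 FPKM), with Col2a1 at 0.0474 FPKM and Matn3 at 0.0027 FPKM. The macrophage sum was mostly Cd14 (4.32 FPKM) and Cd68 (1.70 FPKM). The part of these marker levels in the results was not tested.

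E2F factors bind sequences near the start sites of many of these genes, and the sites are shown here as a description. Most genes of this kind are known to be under E2F control, so a high share of sites follows from the choice of genes. It is not independent evidence. Promoter windows from 250 bases before to 50 bases after the start were taken from RefSeq (build GRCm38.p6) for 33 of the 39 genes; Ccne2, Exo1, Gins1, Gins2, Mcm4 and Pole had no entry. Both strands were searched for the E2F-type motif TTTNNCGC. It was found in 13 of the 37 windows of these genes (35.1%), against 5.17% of all 32851 windows. The CCAAT box, searched as CCAAT on both strands, was in 20 of the 37 windows (54.1%), against 37.4% of all windows. The windows of these genes were richer in G and C, with a median of 61.3% against 52.7%, and the part of base composition in the motif shares was not tested.

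The sites of the replication genes whose 2 groups did not overlap and of the helicase ring genes Mcm3, Mcm5 and Mcm6 read as follows, 5′ to 3′ on the strand of the match, with the motif in capitals and positions of the motif counted from the start site along the gene.
Cdc6, from -138 to -131: ccccaggcgaTTTCCCGCtctccaccgg
Clspn, from 22 to 29: aagttcgagcTTTCGCGCccagacgcgg
Mcm7, from -165 to -158: ggacaccctgTTTCCCGCggttcgaaat
Mcm7, from 17 to 24: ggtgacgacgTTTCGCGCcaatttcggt
Rfc3, from -10 to -3: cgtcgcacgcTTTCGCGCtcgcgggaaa
Rfc3, from 1 to 8: acagtagagtTTTCCCGCgagcgcgaaa
Mcm3, from 20 to 27: cttcccaagtTTTCCCGCcacggaagtt
Mcm3, from 39 to 46: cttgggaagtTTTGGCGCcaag
Mcm5, from -153 to -146: cgccaagaacTTTCGCGCcaaaacgtcc
Mcm5, from -149 to -142: ggctggacgtTTTGGCGCgaaagttctt
Mcm6, from -110 to -103: ggcgtatgctTTTGGCGCgaaaagtgcg
Mcm6, from -106 to -99: cgcacgcactTTTCGCGCcaaaagcata
Mcm6, from -47 to -40: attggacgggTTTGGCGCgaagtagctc
In Mcm5 and in the upstream site of Mcm6, matches on opposite strands share bases. Each pair meets the motif pattern on both strands, but its letters are not an exact inverted repeat. Of the genes with non-overlapping groups 4 of 9 with a window held a match, and of the others 9 of 24.

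Cdc6 and Mcm7 are shown with the whole 250 bases before their start, since they had the smallest p of the genes with a match in that stretch. The capitals mark the motif, which lies on the opposite strand in both and therefore reads GCGGGAAA. The first lies at chr11:98907901-98908150 (plus strand) and the second at chr5:138171884-138172133 (minus strand), in GRCm38.p6.
Cdc6: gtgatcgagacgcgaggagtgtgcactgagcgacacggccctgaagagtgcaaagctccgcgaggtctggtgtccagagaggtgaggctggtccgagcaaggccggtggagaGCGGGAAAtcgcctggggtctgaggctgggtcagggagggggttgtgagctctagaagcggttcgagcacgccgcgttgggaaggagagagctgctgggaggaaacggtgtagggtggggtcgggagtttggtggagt
Mcm7: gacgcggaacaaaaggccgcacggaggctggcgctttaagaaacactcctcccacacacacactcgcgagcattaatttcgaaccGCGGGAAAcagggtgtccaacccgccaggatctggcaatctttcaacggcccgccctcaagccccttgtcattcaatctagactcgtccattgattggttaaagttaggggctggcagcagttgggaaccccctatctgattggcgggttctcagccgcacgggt
A match is a description of the letters and does not show that a factor was bound.

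The comparison asked whether the replication genes of the pre-osteoblasts differed when macrophage supernatant was present. All 39 genes had a higher fitted level with supernatant, by small amounts: the log2 fold changes ran from 0.01 (Pcna) to 0.55 (Exo1), with a median of 0.16, while the median over all tested genes was -0.01. Over all tested genes 48.3% had a log2 fold change above 0. None of the 39 passed the test over all genes (quasi-likelihood test of edgeR, p adjusted by Benjamini-Hochberg under 0.05; smallest adjusted p = 0.272, for Chaf1a), and 0.0165% of all tested genes did. At an unadjusted p under 0.05, 11 of the 39 were higher and 0 lower with supernatant, against 4.65% and 4.30% of all tested genes. DESeq2 on the same counts called 5 of the 39, all higher (Chaf1a, Clspn, Exo1, Mcm10 and Rfc5, adjusted p 0.0193 to 0.0344), where it called 1.73% of all tested genes in either direction and 0.974% higher. It gave an adjusted p to 15349 of the 18177 genes, with all 39 among them, so the shares over genes that could be called are somewhat larger.

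In 11 of the 39 genes every library with supernatant lay above every library on PEEK alone, and in 0 the opposite held. Over all tested genes these shares were 7.83% and 7.36%. The 11 genes were Orc6, Cdc6, Mcm7, Mcm10, Pole, Rfc3, Rfc5, Rpa2, Exo1, Clspn and Chaf1a. In FPKM 15 of the 39 were separated in this way, against 9.64% of genes at 1 FPKM or more. The genes vary together across libraries, so their number is not a number of independent observations.

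**Figure D1:**
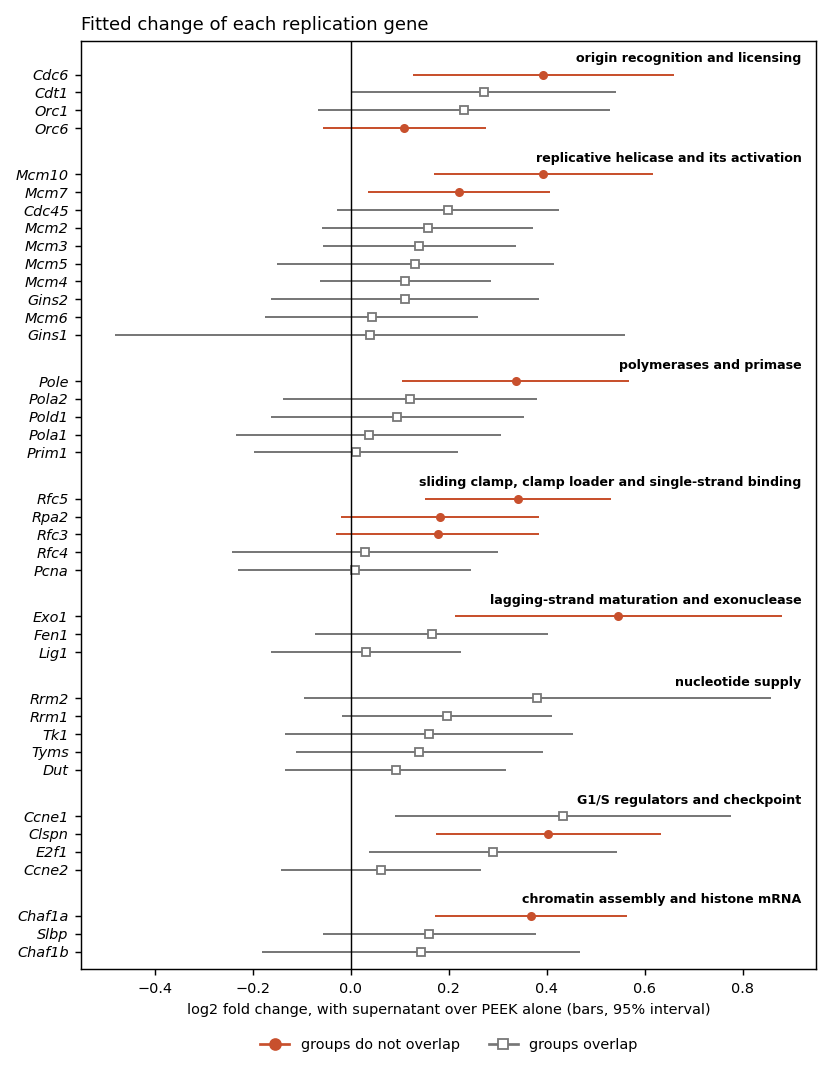
Fitted log2 fold change (x axis, with supernatant over PEEK alone) of each of the 39 genes, grouped by role, with bars for the 95% interval; filled circles mark the 11 genes whose groups did not overlap. All 39 points lie to the right of 0, from 0.01 for Pcna to 0.55 for Exo1, and none passed the edgeR test over all genes.

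The higher values lay mostly in replicates 2 and 3 with supernatant. Set against the mean of the PEEK alone libraries, the median log2 deviation of the 39 genes was 0.03, 0.18 and 0.29 in replicates 1, 2 and 3 with supernatant, and 0.03, -0.04 and -0.01 on PEEK alone. Of the 39 genes 34 had their highest value in replicate 3 with supernatant. The lowest value was in replicate 1 with supernatant in 12, and on PEEK alone in replicate 3 in 13, in replicate 2 in 9 and in replicate 1 in 4. Such extremes were not counted over all tested genes. Replicate 1 lay below both other supernatant libraries in 37 of the 39 (38.3% of all tested genes), and it was above all 3 PEEK alone libraries in 12 and below all 3 in 12. These last shares, 30.8% each, were near those of all tested genes, 30.7% above and 28.7% below. Leaving out replicate 1 with supernatant gave a median log2 fold change of 0.26, and leaving out replicate 3 with supernatant gave 0.09. Without replicate 1, edgeR called 3 of the 39 (Clspn, Exo1 and Mcm10; 1.06% of all tested genes), 25 were higher at an unadjusted p under 0.05 (9.41% of all tested genes), and 29 had groups that did not overlap, against 19.3% of all tested genes. The count at an unadjusted p under 0.05 was 7 without replicate 3 with supernatant (2.98% of all tested genes) and 7 without replicate 2 on PEEK alone (3.43%). With the replicate number as a block it was 9 (3.53%).

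**Figure D2:**
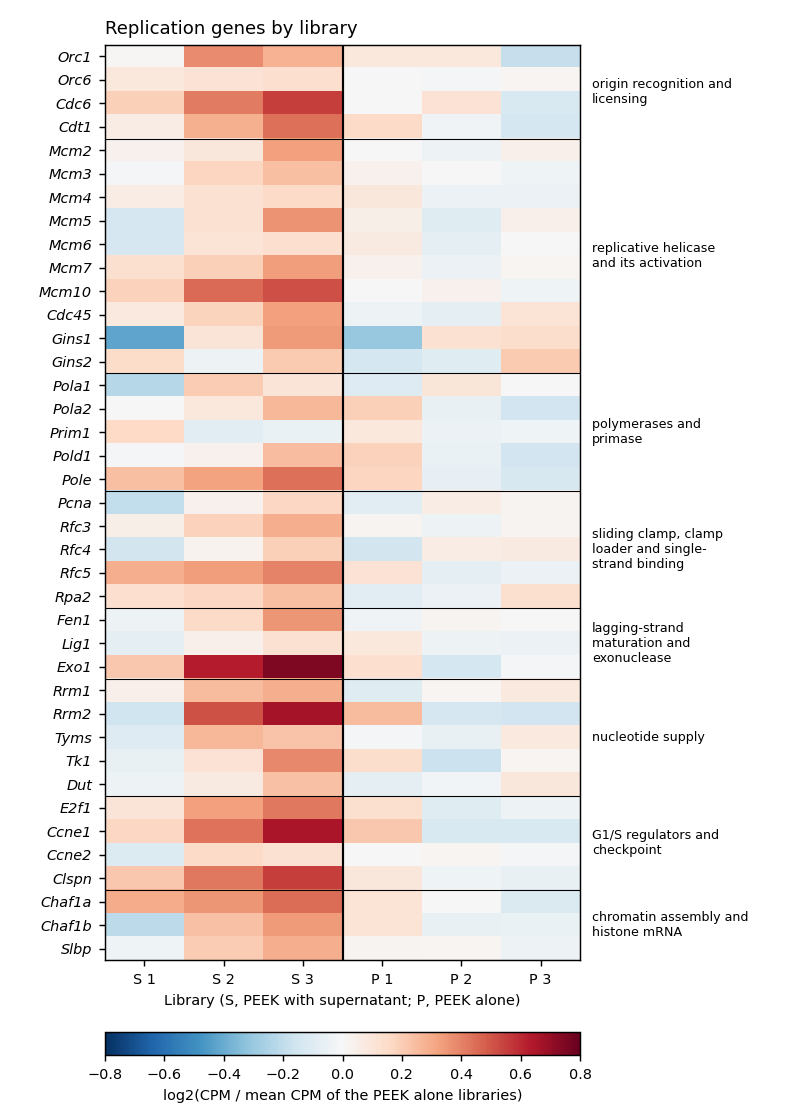
Log2 ratio of the CPM in each library to the mean of the 3 PEEK alone libraries (colour) for each of the 39 genes (rows, by role); S marks libraries with supernatant and P libraries on PEEK alone. Replicates 2 and 3 with supernatant are mostly red, while replicate 1 with supernatant is pale, at a median log2 deviation of 0.03.

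Of the 4 licensing genes 0 passed the edgeR test, and Cdc6 and Orc6 had groups that did not overlap. Cdc6, the loader of the helicase ring, was at 36.0, 42.0 and 46.4 CPM with supernatant, against 31.5, 34.2 and 29.0 CPM on PEEK alone (log2 fold change 0.39 ± 0.12 SE, adjusted p = 0.382 by edgeR). All 3 values with supernatant exceeded the highest on PEEK alone, replicate 1 by the least. Cdt1, its partner in loading, was at 73.1, 85.3 and 95.2 CPM with supernatant, against 77.8, 68.7 and 63.7 CPM on PEEK alone (log2 fold change 0.27 ± 0.12 SE, adjusted p = 0.547 by edgeR). Replicate 1 with supernatant lay inside the PEEK alone range for Cdt1. Orc1, the ATPase subunit that binds origins, was at 21.6, 27.8 and 26.0 CPM with supernatant, against 22.7, 22.7 and 18.8 CPM on PEEK alone (log2 fold change 0.23), and its groups overlapped. Orc6, the smallest subunit of the complex, was at 51.0, 52.1 and 52.8 CPM with supernatant, against 48.0, 47.9 and 48.7 CPM on PEEK alone (log2 fold change 0.11). The gap in Orc6 was small but its libraries were tight, with means of 52.0 ± 0.922 CPM with supernatant and 48.2 ± 0.468 CPM on PEEK alone (SD, n = 3 each).

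In the helicase group Mcm10 and Mcm7 had groups that did not overlap. Mcm10, a factor that helps to activate the loaded helicase, was at 81.0, 97.4 and 102 CPM with supernatant, against 71.2, 72.9 and 69.4 CPM on PEEK alone (log2 fold change 0.39 ± 0.10 SE, adjusted p = 0.301 by edgeR). The groups were separated in all libraries. Mcm7, a ring subunit, was at 265, 276 and 304 CPM with supernatant, against 247, 234 and 245 CPM on PEEK alone (log2 fold change 0.22 ± 0.08 SE, adjusted p = 0.488 by edgeR), and its groups did not overlap either. Mcm3, the most abundant ring subunit by FPKM, was at 236, 268 and 280.2 CPM with supernatant, against 243, 237 and 231 CPM on PEEK alone (log2 fold change 0.14). Replicate 1 with supernatant lay within the PEEK alone values of Mcm3.

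The other ring subunits had log2 fold changes of 0.16 (Mcm2), 0.11 (Mcm4), 0.13 (Mcm5) and 0.04 (Mcm6), all with overlapping groups. Mcm5 was at 149.8, 179 and 211 CPM with supernatant, against 170.2, 154 and 169 CPM on PEEK alone. Replicate 1 with supernatant was the lowest of the 6 libraries for Mcm5 and replicate 3 the highest. Cdc45, which joins the ring in the active helicase, had a log2 fold change of 0.20, and the GINS subunit gene Gins2 one of 0.11. Gins1, the member of lowest level, was at 4.58, 6.57 and 7.74 CPM with supernatant, against 4.97, 6.67 and 6.74 CPM on PEEK alone (log2 fold change 0.04, SE 0.226). Its values spread more within the groups than between them, and the 95% interval of its log2 fold change ran from -0.48 to 0.56.

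Among the polymerase genes Pole had groups that did not overlap and the other 4 had groups that did. Pole, the catalytic subunit of the leading-strand polymerase epsilon, was at 141, 149 and 163 CPM with supernatant, against 135, 115 and 109.5 CPM on PEEK alone (log2 fold change 0.34 ± 0.10 SE, adjusted p = 0.388 by edgeR). Its groups did not overlap, with replicate 1 the highest of the PEEK alone libraries. Pola2, the B subunit of the polymerase alpha-primase complex, was at 74.7, 79.1 and 89.9 CPM with supernatant, against 85.3, 71.7 and 67.1 CPM on PEEK alone (log2 fold change 0.12), with replicate 1 on PEEK alone inside the supernatant range. Prim1, the catalytic primase subunit, was at 96.4, 81.1 and 82.97 CPM with supernatant, against 91.2, 83.2 and 84.0 CPM on PEEK alone (log2 fold change 0.01). In Prim1, unlike most of the 39 genes, replicate 1 with supernatant was the highest library. Pold1, the catalytic subunit of polymerase delta, had a log2 fold change of 0.09 and Pola1, that of polymerase alpha, one of 0.04, both with overlapping groups.

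The clamp loader gene Rfc5 had one of the smallest p of the set, while the clamp itself had a log2 fold change close to 0. Rfc5, a subunit of replication factor C, was at 73.3, 75.8 and 79.0 CPM with supernatant, against 64.9, 57.1 and 58.0 CPM on PEEK alone (log2 fold change 0.34 ± 0.08 SE, adjusted p = 0.29 by edgeR). All libraries with supernatant were above all libraries on PEEK alone. Rfc3, another subunit, was at 40.2, 44.2 and 47.7 CPM with supernatant, against 39.5, 37.8 and 39.6 CPM on PEEK alone (log2 fold change 0.18), and Rpa2, a subunit of the single-strand binding protein RPA, was at 52.0, 53.1 and 56.0 CPM with supernatant, against 44.6, 45.8 and 51.7 CPM on PEEK alone (log2 fold change 0.18). Their groups did not overlap, but the gap between the nearest libraries was under 1 CPM in each. Pcna, the sliding clamp and the member of highest level, was at 178, 209.5 and 229 CPM with supernatant, against 192.0, 213 and 208 CPM on PEEK alone (log2 fold change 0.01 ± 0.10 SE, adjusted p = 0.988 by edgeR). Its highest and its lowest library were both with supernatant, and the 95% interval of its log2 fold change ran from -0.23 to 0.24. Rfc4 had a log2 fold change of 0.03.

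Exo1 had the largest fitted change of the 39. Exo1, a 5′ to 3′ exonuclease of mismatch repair and end resection, was at 33.7, 44.9 and 48.8 CPM with supernatant, against 32.0, 26.4 and 28.9 CPM on PEEK alone (log2 fold change 0.55 ± 0.15 SE, adjusted p = 0.32 by edgeR). Replicates 2 and 3 with supernatant were far above PEEK alone, and replicate 1 just above its highest library. Fen1, the flap endonuclease that trims Okazaki fragments, was at 82.99, 94.7 and 109 CPM with supernatant, against 83.5, 86.7 and 85.6 CPM on PEEK alone (log2 fold change 0.16), with replicate 1 with supernatant below the PEEK alone range. Lig1, the ligase that joins the fragments, had a log2 fold change of 0.03 and overlapping groups.

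No gene of nucleotide supply had groups that did not overlap. Rrm1, the large subunit of ribonucleotide reductase, was at 254, 294 and 302 CPM with supernatant, against 231, 249.5 and 261 CPM on PEEK alone (log2 fold change 0.20 ± 0.09 SE, adjusted p = 0.589 by edgeR). Rrm2, the small subunit made in S phase, was at 44.4, 70.5 and 78.9 CPM with supernatant, against 59.2, 45.2 and 44.6 CPM on PEEK alone (log2 fold change 0.38 ± 0.21 SE, adjusted p = 0.638 by edgeR). Rrm2 separated replicates 2 and 3 with supernatant from replicate 1, which was the lowest of all 6 libraries, and replicate 1 was the highest library on PEEK alone. Tyms, the thymidylate synthase, was at 54.96, 71.1 and 69.0 CPM with supernatant, against 58.2, 56.5 and 62.2 CPM on PEEK alone (log2 fold change 0.14). The thymidine kinase Tk1 and the dUTPase Dut had log2 fold changes of 0.16 and 0.09, with overlapping groups.

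Of the G1/S regulators Clspn had groups that did not overlap. Clspn encodes claspin, the adaptor of the replication checkpoint, and was at 87.3, 101 and 109.9 CPM with supernatant, against 79.9, 73.3 and 72.0 CPM on PEEK alone (log2 fold change 0.40 ± 0.10 SE, adjusted p = 0.301 by edgeR). Ccne1, the cyclin E1 that drives entry into S phase with Cdk2, was at 25.8, 31.0 and 36.2 CPM with supernatant, against 26.7, 21.2 and 21.1 CPM on PEEK alone (log2 fold change 0.43 ± 0.15 SE, adjusted p = 0.455 by edgeR). In Ccne1 replicate 1 with supernatant lay below replicate 1 on PEEK alone and above both other PEEK alone libraries. E2f1, the transcription factor of the S-phase programme, was at 39.1, 45.7 and 48.9 CPM with supernatant, against 39.8, 34.1 and 35.5 CPM on PEEK alone (log2 fold change 0.29 ± 0.11 SE, adjusted p = 0.498 by edgeR), with the same single overlap. Ccne2, the second E-type cyclin, was at 59.5, 71.3 and 69.6 CPM with supernatant, against 63.9, 64.6 and 63.6 CPM on PEEK alone (log2 fold change 0.06). The PEEK alone libraries of Ccne2 were within about 1 CPM of each other, and the supernatant libraries lay on both sides of them.

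Chaf1a had the smallest p of the 39 genes. Chaf1a, the large subunit of the chromatin assembly factor that places histones behind the fork, was at 136, 142 and 151 CPM with supernatant, against 119, 111 and 102 CPM on PEEK alone (log2 fold change 0.37 ± 0.08 SE, adjusted p = 0.272 by edgeR). All 3 libraries with supernatant lay above all 3 on PEEK alone. Its partner subunit Chaf1b was at 36.8, 50.0 and 53.8 CPM with supernatant, against 45.8, 40.7 and 40.9 CPM on PEEK alone (log2 fold change 0.14), with replicate 1 with supernatant the lowest of all libraries. Slbp, which binds the stem-loop of histone mRNAs, was at 101, 119 and 126 CPM with supernatant, against 105, 104 and 100.2 CPM on PEEK alone (log2 fold change 0.16). Replicates 2 and 3 with supernatant were above the PEEK alone range of Slbp and replicate 1 was inside it.

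**Figure D3:**
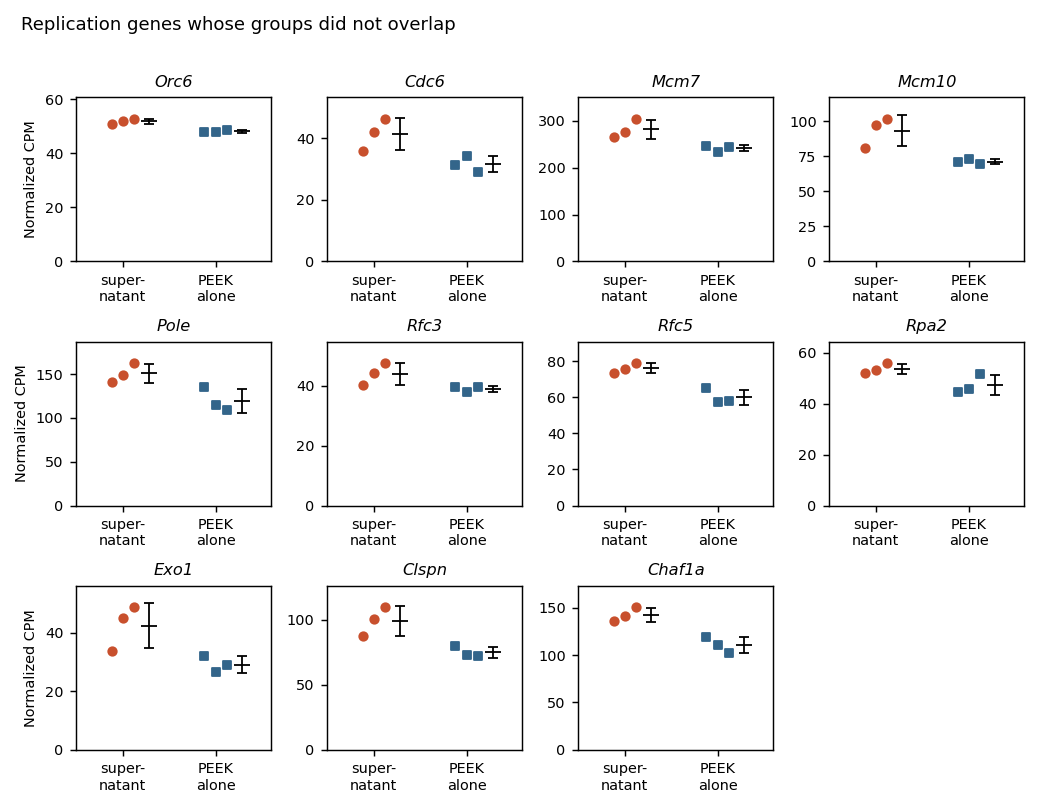
Normalized CPM (y axis, from 0) in each library of the 11 genes whose groups did not overlap: circles, replicates 1 to 3 with supernatant from left to right; squares, replicates 1 to 3 on PEEK alone; bars, mean ± SD (n = 3). In each gene the lowest circle lies above the highest square, by under 1 CPM in Rfc3 and Rpa2.

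The spread between libraries was wider with supernatant. The coefficient of variation of the CPM had a median of 11.1% with supernatant and 6.79% on PEEK alone, and it was larger with supernatant in 31 of the 39 genes. Over all tested genes the medians were 14.2% with supernatant and 11.2% on PEEK alone, and it was larger with supernatant in 59.0%.

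Per gene length, the 39 genes spanned 3.96 (Gins1) to 82.8 FPKM (Pcna) as means over all 6 libraries, with a median of 15.0 FPKM, against a median of 3.52 FPKM over all tested genes. Pcna averaged 83.4 ± 9.29 FPKM with supernatant and 82.2 ± 3.73 FPKM on PEEK alone (SD, n = 3 each). The next 5 genes in level were the ring subunits Mcm3, Mcm7, Mcm4, Mcm6 and Mcm5. Mcm3 averaged 67.8 ± 4.97 FPKM with supernatant and 61.1 ± 2.01 FPKM on PEEK alone, and Mcm2, the ring subunit of lowest level, 33.2 ± 3.46 FPKM with supernatant and 29.5 ± 0.815 FPKM on PEEK alone. The ring subunits thus spanned 31.3 to 64.4 FPKM, a 2.06-fold range. Each ring holds 1 copy of each protein, but mRNA level and protein number are unlike measures. In 10 of the 38 neighbouring pairs of this order the gap between means was larger than the larger SD over the 6 libraries. These were the first 8 pairs, from Pcna down to Mcm2 and Cdt1, and the steps from Pola2 to Cdc6 and from Orc1 to Exo1. In the other 28 pairs, from Cdt1 and Rrm1 downwards, the gap was not larger than that spread. The SD takes in both groups and any shift that genes share in a library, so the order within libraries was not tested. At the low end stood Orc1 (7.03 ± 0.781 FPKM with supernatant and 5.94 ± 0.661 FPKM on PEEK alone), Exo1 (4.90 ± 0.835 FPKM with supernatant and 3.33 ± 0.350 FPKM on PEEK alone) and Gins1 (4.03 ± 0.976 FPKM with supernatant and 3.89 ± 0.601 FPKM on PEEK alone). FPKM depends on the gene model used for length, which the sources do not state.

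**Figure D4:**
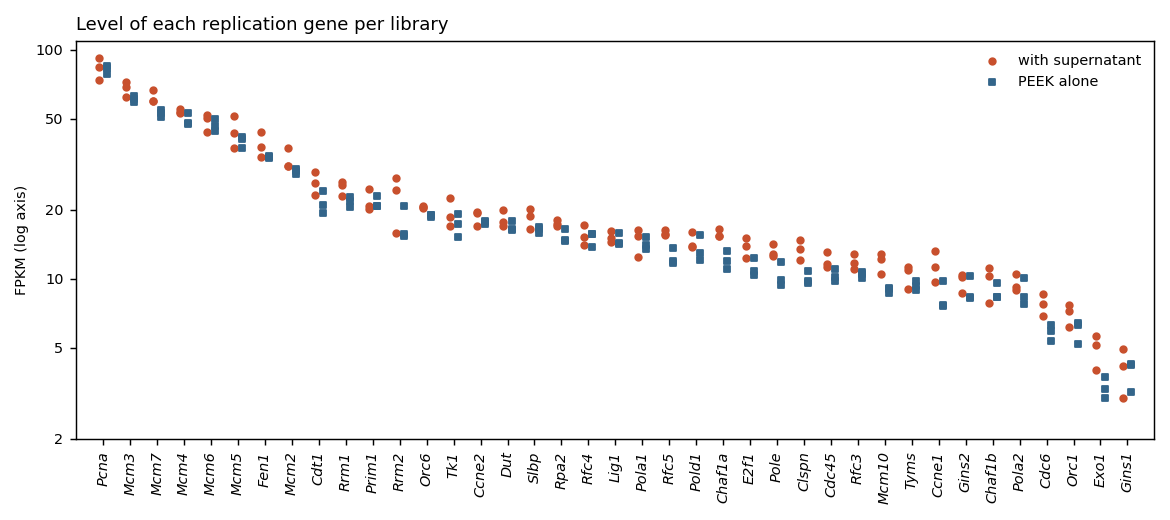
FPKM (y axis, log scale) of each of the 39 genes in each library, ordered by mean level; circles, with supernatant; squares, PEEK alone. Pcna and the ring subunits lead, Gins1 and Exo1 are lowest, and the library differences are small beside the range from 3.96 to 82.8 FPKM between genes.

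The 39 genes lay on 14 chromosomes. In the deposited annotation, 35 genes carried the KEGG term for DNA replication, of which 18 are among the 39. The Gene Ontology term was carried by 104 genes, of which 29 are among the 39. In the coordinates of the table, for which no build is stated, Chaf1a (ENSMUSG00000002835) is on chromosome 17 from 56347439 to 56379289, plus strand, and Exo1 (ENSMUSG00000039748) on chromosome 1 from 175708147 to 175741055, plus strand. Mcm10 (ENSMUSG00000026669) is on chromosome 2 from 4994525 to 5017564, minus strand, Rfc5 (ENSMUSG00000029363) on chromosome 5 from 117516168 to 117527112, minus strand, and Clspn (ENSMUSG00000042489) on chromosome 4 from 126450728 to 126487696, plus strand. All values are for whole genes. Of the 39 genes 11 overlap a gene on the other strand whose mean count is at least 10% of their own, and no source states how the counting used strand. Among those with non-overlapping groups these were Orc6 (with Vps35, at 645% of its own count), Rfc5 (with Wsb2, at 156%), Mcm7 (with Cops6, at 47.0%, and Ap4m1, at 24.3%) and Chaf1a (with Ubxn6, at 18.8%). The pseudogene Pcna-ps2 had 9.94 to 12.1% as many counts as Pcna, and how reads matching both were counted is not stated, so the level of Pcna is uncertain.

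Among 74 other genes of replication and S-phase control, 0 passed the edgeR test over all genes and DESeq2 called 8, all higher, against 0.974% of all tested genes called higher. At an unadjusted p under 0.05, 15 were higher and 0 lower (4.65% and 4.30% of all tested genes). Without replicate 1 with supernatant edgeR called 4 of the 74, Atad2, Brca1, Ccnd1 and E2f8, and 1.06% of all tested genes. The list was chosen with earlier results of these data known. The median log2 fold change of these 74 was 0.13, and 15 had groups that did not overlap with supernatant higher and 2 with supernatant lower (7.83% and 7.36% of all tested genes). E2f8, an E2F repressor made in S phase, was at 89.0, 61.2 and 61.3 CPM with supernatant, against 41.6, 35.5 and 37.9 CPM on PEEK alone (log2 fold change 0.88 ± 0.15 SE, adjusted p = 0.178 by edgeR). In E2f8 replicate 1 with supernatant was the highest library, which differs from the order in Exo1, Clspn and Mcm10. E2f3, an activator E2F, was at 149.9, 151 and 151 CPM with supernatant, against 127, 119.7 and 119.8 CPM on PEEK alone (log2 fold change 0.30 ± 0.07 SE, adjusted p = 0.266 by edgeR), and its supernatant libraries were nearly equal. Cdca7, a chromatin factor under E2F control, was at 78.7, 82.0 and 84.2 CPM with supernatant, against 70.3, 64.0 and 63.4 CPM on PEEK alone (log2 fold change 0.31 ± 0.08 SE, adjusted p = 0.305 by edgeR). All 3 genes had groups that did not overlap.

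Among the other licensing and firing genes Ticrr, which carries Cdc45 to the loaded helicase, was at 44.9, 49.0 and 50.7 CPM with supernatant, against 39.2, 31.8 and 32.5 CPM on PEEK alone (log2 fold change 0.48 ± 0.11 SE, adjusted p = 0.266 by edgeR). Its groups did not overlap. Recql4, a helicase of initiation, and Topbp1, a scaffold of initiation and checkpoint, had log2 fold changes of 0.31 and 0.23 with overlapping groups. At the fork the smallest p belonged to Mcm8 (log2 fold change 0.42), a helicase of recombination, the GINS subunit Gins3 (0.37) and the clamp unloader Atad5 (0.34), all with groups that did not overlap. Gins3 was at 23.4, 26.2 and 23.4 CPM with supernatant, against 18.7, 18.7 and 18.9 CPM on PEEK alone, whereas Gins1 and Gins2 had overlapping groups. The 2 genes with lower supernatant libraries throughout were Rnaseh2b (-0.34), a subunit of ribonuclease H2, and Pold4 (-0.24), the smallest subunit of polymerase delta. Both were chosen after their values were seen.

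For nucleotide synthesis Shmt1, a one-carbon enzyme, was at 59.3, 65.8 and 68.9 CPM with supernatant, against 49.9, 50.5 and 53.7 CPM on PEEK alone (log2 fold change 0.33 ± 0.08 SE, adjusted p = 0.308 by edgeR). Its groups did not overlap, unlike those of the 5 supply genes above. The deoxycytidine kinase Dck had a log2 fold change of 0.22 with overlapping groups. Brca1, the repair factor, was at 94.0, 109 and 117 CPM with supernatant, against 82.1, 83.1 and 82.5 CPM on PEEK alone (log2 fold change 0.37), without overlap; it was chosen after its values were seen. Ccnd1, cyclin D1 of the G1 phase, was at 73.0, 277 and 278 CPM with supernatant, against 117, 102 and 153 CPM on PEEK alone (log2 fold change 0.75 ± 0.43 SE, adjusted p = 0.653 by edgeR). Replicate 1 with supernatant was the lowest of all 6 libraries for Ccnd1 and replicates 2 and 3 the highest.

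Of 7 CDK inhibitor genes 0 passed with edgeR or DESeq2, and 1 was lower at an unadjusted p under 0.05 (4.30% of all tested genes). Cdkn1b, which encodes p27, was at 172, 154 and 141 CPM with supernatant, against 189.8, 178 and 188 CPM on PEEK alone (log2 fold change -0.25 ± 0.09 SE, adjusted p = 0.482 by edgeR), and every library with supernatant lay below every library on PEEK alone. Cdkn2a and Cdkn2b had log2 fold changes of -0.18 and -0.17 with overlapping groups. Cdkn1a, which encodes p21, was at 0.670, 4.84 and 4.26 CPM with supernatant, against 2.38, 1.86 and 1.98 CPM on PEEK alone (log2 fold change 0.65), with replicate 1 with supernatant the lowest library. Of the replication-dependent histone genes, whose mRNAs mostly lack the poly(A) tail used for selection here, 7 of 10 in the table could be tested, and 0 passed with edgeR or DESeq2 or had an unadjusted p under 0.05. Their median log2 fold change was -0.29, which is the value of the linker histone gene H1f2. H1f2 was at 17.4 ± 3.33 CPM with supernatant and 21.2 ± 3.33 CPM on PEEK alone. H4c3, H2ac8, H3c3 and H4c14 had few counts, with SE of 0.477 to 0.855, so the median of the list is uncertain.

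Genes of G2 and mitosis had the same order of supernatant libraries. In 25 such genes the median log2 deviation was -0.07, 0.35 and 0.49 in replicates 1, 2 and 3 with supernatant, and 0.22, -0.20 and -0.03 on PEEK alone. Their median log2 fold change was 0.25, 0 of 25 passed with edgeR or DESeq2, 4 were higher at an unadjusted p under 0.05 (4.65% of all tested genes), and 0 had groups that did not overlap with supernatant higher (7.83% of all tested genes). Replicate 1 with supernatant lay among or below the PEEK alone libraries in all 25. Cdk1, the mitotic kinase, was at 116, 144 and 172 CPM with supernatant, against 123, 102 and 118 CPM on PEEK alone (log2 fold change 0.34 ± 0.14 SE, adjusted p = 0.54 by edgeR). Mki67, the proliferation marker, was at 327, 464 and 464 CPM with supernatant, against 432, 351 and 359.6 CPM on PEEK alone (log2 fold change 0.14). The ubiquitin-conjugating enzyme Ube2c, the topoisomerase Top2a and the spindle protein Nusap1 had log2 fold changes of 0.47, 0.28 and 0.33. The difference in response between the replication and the G2 and mitosis lists was not tested.

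**Figure D5:**
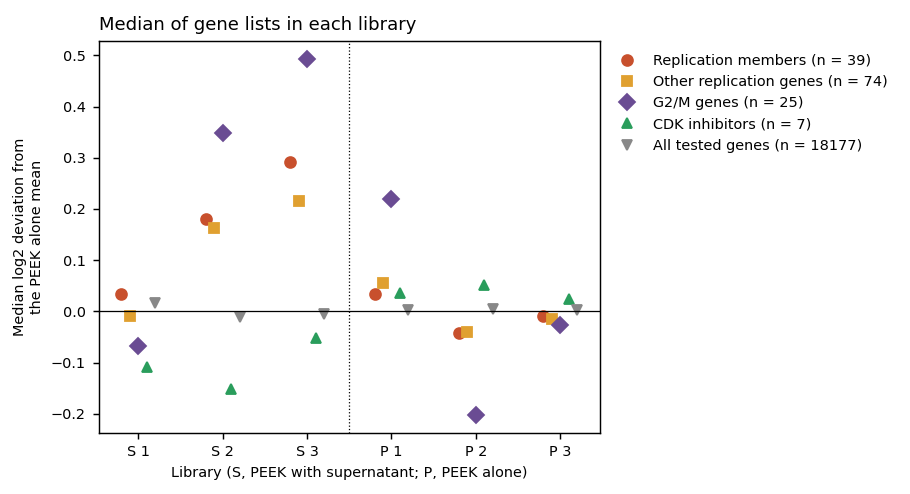
Median log2 deviation from the PEEK alone mean (y axis) of 5 gene sets in each library; S, with supernatant; P, PEEK alone. The 39 replication genes reach 0.18 and 0.29 in replicates 2 and 3 with supernatant and 0.03 in replicate 1, the 25 genes of G2 and mitosis have the same order of supernatant libraries, and the median of all tested genes stays near 0.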

How the data were processed

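Poly(A) RNA of MC3T3-E1 cells was sequenced in 6 libraries as paired ends, per the labels' protocols, with adapters that carried molecular identifiers. For each gene and library the deposited table holds raw counts and the authors' FPKM, per the file headers. The submitters' processing notes list cutadapt 1.9 and HISAT2 2.2.1. No source used here states the build, annotation, counting tool, strand setting or use of the identifiers.

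Groups follow the treatment labels and replicate numbers the library names. Counts were tested with edgeR 4.0.16 in R 4.3.3 (TMM, filterByExpr with a minimum count of 10 and total of 15, quasi-likelihood fit with group as the only term, Benjamini-Hochberg over 18177 genes, threshold 0.05). The SE is the log2 fold change divided by the square root of F. For per-library medians, log2 CPM had a prior count of 2. The authors' FPKM values were used for levels and in limma 3.58.1 as an alternative, with DESeq2 1.42.0, other filters, a replicate block and left-out libraries. The test was checked on simulated data. No libraries held identical values, and none agreed within sampling noise (chi-square per gene 25.4 to 111.9). The titles call 2 libraries of each group biological replicates, which are replicates 2 and 3 here, and number them otherwise. Replicate 1 of each group has no such label. The labelled libraries were also the closest pair in each group, and the part of this label in the results was not tested. Whether all came from separate cultures is not said, and the p-values then reflect a spread that may be technical.

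The members, lists and tests were chosen with earlier results of these data known. Values by library were given for genes with non-overlapping groups, for the 2 of smallest p and those of highest and lowest FPKM in each role group, and some others chosen after their values were seen; from each other list up to 3 genes of smallest p, plus Cdkn1a, Ccnd1, Mki67 and Cdk1, were named. A gene that this rule names is not reported here.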

Additional observations from a re-analysis of the deposited data

How the results depend on the processing

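All 39 log2 fold changes stayed above 0 with DESeq2, with DESeq2 size factors in edgeR, with no low-count filter and with the replicate number as a block, and so did those of the genes kept by the 3 limma fits on FPKM (39, 39 and 37). Over all genes edgeR called 3; DESeq2 called 315, limma with a filter of 5 FPKM 11, and no low-count filter, the replicate block and a threshold of 0.01 called 0 each (unadjusted p under 0.05: 1903, 1330 and 1627). DESeq2 called 5 of the 39 genes and 8 of the other 74. Leaving out each library gave 0 to 199 genes called, 0 to 3 of the 39, 0 to 4 of the other 74, and a median log2 fold change of 0.0917 to 0.258. Of the 39, 7 to 25 were higher at an unadjusted p under 0.05, against 2.98 to 9.41% of all tested genes. Groups did not overlap, with supernatant higher, in 10 to 29 of the 39, against 10.4 to 19.3% of all tested genes. With a library left out groups separate more easily, so these counts do not compare with the 7.83% of all 6 libraries. Leaving out libraries also affected signs. The sign turned in 7 uncalled genes, whose log2 fold changes ran from -0.00622 to 0.134 (Mcm6), -0.134 to 0.234 (Gins1), -0.056 to 0.164 (Pola1), -0.06 to 0.0598 (Prim1), -0.0751 to 0.111 (Pcna), -0.057 to 0.12 (Rfc4) and -0.0145 to 0.0916 (Lig1). The cause was not tested. Deviations of same-numbered libraries correlated at -0.03, -0.01 and 0.02, so the numbers were not taken as pairs; under the replicate block 0 of the 39 passed (smallest edgeR adjusted p = 0.586), 9 were higher at an unadjusted p under 0.05, and the median was 0.15. With FPKM in place of CPM, 15 of the 39 had groups that did not overlap, against 9.64% of genes at 1 FPKM or more. The smallest count of a replication gene in a library was 362, and the number of libraries, 3 a group, limits the precision.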
